A study of Homo sapiens with 6 samples.

Results

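The matrix metalloproteinases (MMPs), the ADAMTS proteases and their tissue inhibitors (TIMPs) were followed across 6 libraries of MCF10A, an established human line of non-tumorigenic mammary epithelial cells. Every amplicon whose gene symbol was MMP, ADAMTS or TIMP followed by digits was taken, with ADAMTSL genes left out. This gave 46 of the 20812 amplicons, of which 23 were MMP, 19 ADAMTS and 4 TIMP genes. Expression was measured by Ion AmpliSeq Transcriptome sequencing, which counts the reads from a short PCR product, 1 for each gene, made from cDNA. RPM values are those counts scaled to a library total of 1000000 reads.

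The study asked which transcripts differ when MCF10A overexpresses GIRK1, a subunit of G-protein activated potassium channels encoded by KCNJ3. MCF10A GIRK1 carries the human GIRK1 coding sequence in the pIRES2eGFP plasmid, stably transfected, selected with G418 and sorted on eGFP fluorescence. MCF10A eGFP went through the same selection with eGFP alone, so both transfected lines share eGFP and G418 selection, which the parental MCF10A WT lacks. The methods describe a sorted population and not a clone, and each line has 2 libraries. GEO's short design text reads as if the 2 GIRK1 libraries were separate lines, and the methods call them replicates. Nothing states that the replicates came from separate cultures, so p-values measure only the spread between these libraries, which may be technical. The names of the deposited data set the GIRK1 libraries under a tag of their own, so tag and line cannot be told apart.

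MMPs and ADAMTS proteases are zinc-dependent enzymes that cut the extracellular matrix and proteins at the cell surface. MMPs are made as inactive precursors, and removal of the propeptide, often by furin-like convertases, plasmin or another MMP, makes them active. TIMPs bind the active site of MMPs, and TIMP3 also inhibits several ADAMTS enzymes. In the mammary gland these proteins take part in branching of the ducts, in involution after lactation and in turnover of the basement membrane on which the epithelium rests. Many MMPs of the breast are made by stromal cells, and a pure epithelial culture lacks that stroma.

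Library totals ran from 2506120 to 16040556 reads. The smallest level the depth can show, set at 3 reads, lay between 0.187 and 0.585 RPM in 5 libraries and at 1.20 RPM in WT replicate 1. Intervals and floors cover counting error only, because amplified reads are not independent molecules. KCNJ3 had 2408 and 3677 reads in the GIRK1 libraries and 0 in both eGFP libraries and in WT replicate 2. The library labelled WT replicate 1 held 48 KCNJ3 reads and went against its label in its markers. Its 8 basal mammary markers summed to 58.7 RPM, against 8202 to 14713 RPM in the other 5 libraries, and its 10 luminal markers summed to 18911 RPM, against 531 to 1029 RPM. The luminal genes KRT19 and ESR1 had 2315 and 481 reads there and 0 elsewhere, while the basal gene KRT14 had 0 there. TP63, a defining basal marker, had 0 reads in all 6 libraries. WT replicate 1 was kept out of the main comparisons, as the rule for the members asked, and is shown apart. It entered only the alternatives where this is stated. The 5 leukocyte markers summed to 22.4 to 49.0 RPM in the 5 libraries compared (PTPRC and LYZ at 0) and the 4 endothelial markers to 0.677 to 1.89 RPM (CDH5 and VWF at 0). The 8 fibroblast markers summed to 31.9 and 33.5 RPM in the GIRK1 libraries and to 8.60 to 13.7 RPM in the 3 controls, with COL1A2, PDGFRA and THY1 at 0 reads. That difference was carried by DCN, with 300 and 261 reads in GIRK1 against 4 and 38 in eGFP and 164 in WT replicate 2. Its part in the results was not tested.

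The genes of this family differ in what stands before their start site, and 4 stretches of RefSeq promoter sequence (GRCh38.p14) are printed to show the range. TIMP3 and MMP14 were read well in the 5 libraries compared, and ADAMTS6 was low in the GIRK1 libraries. MMP10 stands for the MMP cluster on chromosome 11, which gave almost no reads here. Each stretch lies within the 250 bases before the RefSeq start, on the strand of its gene, and ends where an annotated exon begins. Capitals mark the GC box GGGCGG, to which SP-family factors bind, or the AP-1 motif TGANTCA, the target of FOS and JUN dimers and a known element of many MMP promoters. Both were searched on both strands and do not overlap each other.
TIMP3, chr22:32801455-32801700, plus strand: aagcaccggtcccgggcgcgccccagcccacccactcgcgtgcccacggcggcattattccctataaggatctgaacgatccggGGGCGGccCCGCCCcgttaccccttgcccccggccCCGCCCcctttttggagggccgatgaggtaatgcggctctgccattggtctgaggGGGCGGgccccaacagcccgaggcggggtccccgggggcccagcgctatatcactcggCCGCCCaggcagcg
MMP14, chr14:22836335-22836556, plus strand: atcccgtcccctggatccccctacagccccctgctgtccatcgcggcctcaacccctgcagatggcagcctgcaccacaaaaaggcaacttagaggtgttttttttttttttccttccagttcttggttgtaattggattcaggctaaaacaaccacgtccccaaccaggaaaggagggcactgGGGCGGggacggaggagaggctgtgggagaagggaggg
ADAMTS6, chr5:65481921-65482170, minus strand: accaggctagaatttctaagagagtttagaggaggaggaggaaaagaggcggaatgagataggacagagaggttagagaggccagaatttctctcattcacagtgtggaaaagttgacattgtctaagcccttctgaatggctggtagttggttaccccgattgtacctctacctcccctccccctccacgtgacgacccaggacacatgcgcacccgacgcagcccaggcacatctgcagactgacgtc
MMP10, chr11:102780629-102780878, minus strand: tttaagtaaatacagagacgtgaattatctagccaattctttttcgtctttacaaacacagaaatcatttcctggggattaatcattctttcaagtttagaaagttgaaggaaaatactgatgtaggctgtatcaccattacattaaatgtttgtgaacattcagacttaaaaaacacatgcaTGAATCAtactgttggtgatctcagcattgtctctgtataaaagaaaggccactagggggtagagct

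In these windows TIMP3 held 26 CpG dinucleotides and 5 GC boxes, MMP14 held 7 CpGs and 1 GC box, and ADAMTS6 held 8 CpGs and neither motif. MMP10 held 2 CpGs and 1 AP-1 motif. Of all 35116 RefSeq promoter windows of that length, 42.6% held the GC box and 6.57% the AP-1 motif, and the median number of CpGs was 11. RefSeq promoters were used for 27 members, 26 of them with a single window. Windows on chromosome 8 were left out, so MMP16, which lies there and had 10 reads in WT replicate 2, is in neither group below. Among the 9 of these with at least 10 reads in 1 of the 5 libraries compared, the windows held 6 to 31 CpGs (median 21), 8 had a GC box and 1 had an AP-1 motif. Among the 17 with fewer reads, the windows held 0 to 40 CpGs (median 17), 10 had a GC box and 3 had an AP-1 motif. The ranges overlapped throughout, and the count of letters in a window did not separate the genes that were read from those that were not. MMP7, MMP10 and MMP20 were the 3 less-read genes with an AP-1 motif, and all lie in the chromosome 11 cluster.

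**Figure D1:**
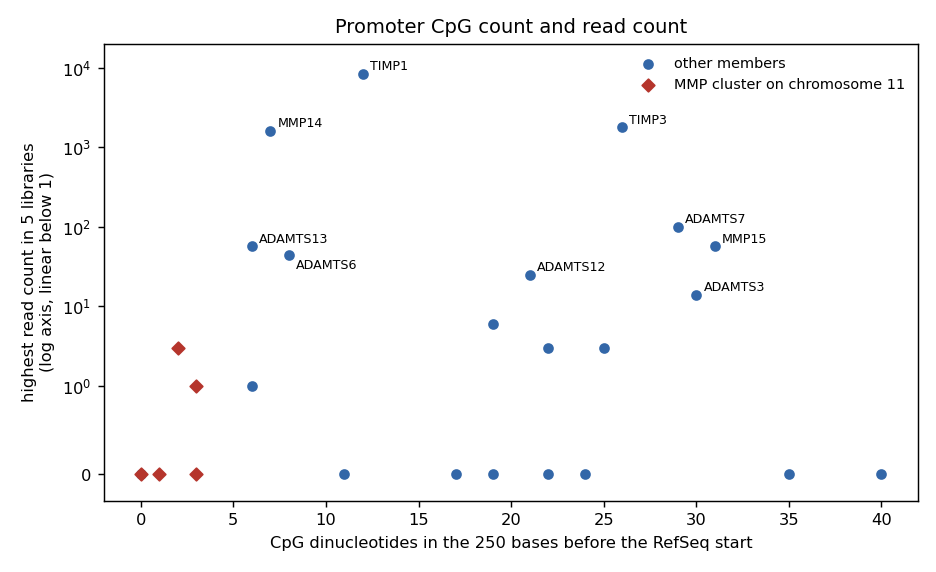
Number of CpG dinucleotides in the 250 bases before the RefSeq start (x axis) against the highest read count in the 5 libraries compared (y axis, log scale, linear below 1), with 1 point for each of 26 genes. Genes of the chromosome 11 MMP cluster (diamonds) have few CpGs and few reads, whereas genes with 0 reads elsewhere reach 40 CpGs, and MMP8 of the cluster and MMP26 outside it share the point at 0.

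Of the 46 genes, 30 had a read in the 5 libraries compared, most of them at low counts. No read was counted in any library for 13 genes, which were ADAMTS2, ADAMTS4, ADAMTS5, ADAMTS8, ADAMTS14, ADAMTS16, ADAMTS18, MMP8, MMP12, MMP20, MMP23B, MMP26 and MMP27. In the deepest of the libraries compared, WT replicate 2, a count of 0 allows a level of up to 0.187 RPM. ADAMTS19, ADAMTS20 and TIMP4 were read only in WT replicate 1. Another 12 genes had a read in the 5 libraries compared but stayed under 10 reads in each of them, and 18 reached 10 reads in at least 1. Only 7 reached 10 reads in all 5, and these were TIMP1, TIMP2, TIMP3, MMP14, MMP15, MMP28 and ADAMTS7. Amplicons of different genes need not amplify alike, so levels are compared between libraries and not between genes. A gene without reads may also have an amplicon that reads poorly, which was not tested.

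The classic secreted MMPs were near the floor. Collagenases (MMP1, MMP8, MMP13) open the triple helix of fibrillar collagen, stromelysins (MMP3, MMP10) cut a broad range of matrix proteins, and MMP7 is a small secreted MMP of glandular epithelia. They lie with MMP12, MMP20 and MMP27 in 1 cluster of 9 genes on chromosome 11 from 102520508 to 102955734 (GRCh38, GENCODE annotation). The 9 genes together had 9 reads in WT replicate 2, 5 and 4 in the eGFP libraries and 2 and 7 in the GIRK1 libraries. The highest count of any of them was 6 reads, for MMP13 in GIRK1 replicate 2. No difference between the lines was detectable at this depth. The gelatinase MMP2, which cuts denatured and basement membrane collagen, had 1 to 4 reads in the 5 libraries. The stromelysin-3 gene MMP11, typically a product of breast stroma, had 3 and 2 reads in the eGFP libraries and 0 in the other 4.

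**Figure D2:**
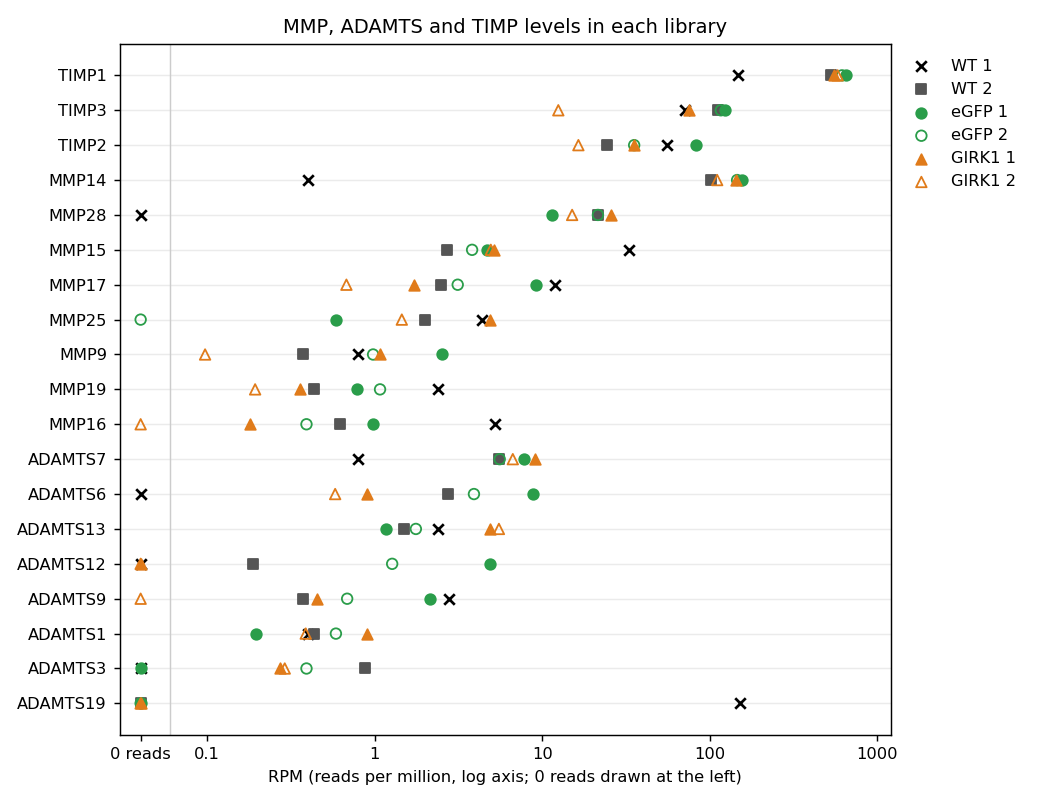
Level of 19 MMP, ADAMTS and TIMP genes in each library in RPM (log axis), with genes at 0 reads drawn at the left and 1 symbol per library. WT replicate 1 (crosses) lies apart for ADAMTS19, MMP14, MMP15 and MMP28, and the GIRK1 libraries (triangles) lie low for ADAMTS6 and high for ADAMTS13.

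GIRK1 was compared with eGFP and with WT replicate 2 in edgeR's quasi-likelihood test over the 11779 genes that passed the filter on low counts, 16 of them members. No member passed an adjusted p of 0.05 in either comparison. The same threshold was passed by 188 of all genes (1.60%) against eGFP and by 27 (0.229%) against WT replicate 2, which is 1 library assumed to vary like the others. The smallest adjusted p among the members was 0.0738 against eGFP, for ADAMTS6, and 0.497 against WT replicate 2, for ADAMTS13 (edgeR). At an unadjusted p below 0.05, ADAMTS13 and MMP25 were higher in GIRK1 than in eGFP, and ADAMTS6, ADAMTS12, MMP17 and TIMP2 were lower. Of all genes tested, 8.13% were higher and 10.7% lower by that measure. DESeq2 put 3 members past its adjusted threshold against eGFP, all lower in GIRK1 (ADAMTS6, ADAMTS12 and MMP17), and 0 against WT replicate 2, where 5.86% and 1.15% of all genes with a DESeq2 adjusted p passed. At an unadjusted p below 0.05 against WT replicate 2, ADAMTS13 was higher and ADAMTS6 was lower, where 3.76% of all genes were higher and 3.62% lower. The other 30 members did not pass the filter, and some of the 16 passed it only through the libraries in which they were high (ADAMTS12 through eGFP, for example), so nothing is read from the balance of higher and lower members.

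These calls hung on single libraries. Without eGFP replicate 2 there were 5 members past the adjusted threshold against eGFP (ADAMTS6, ADAMTS12, ADAMTS13, MMP17 and TIMP2), where 25.5% of all genes passed. Without eGFP replicate 1 there were 3 (ADAMTS6, ADAMTS12 and MMP25), where 8.33% of all genes passed. Without GIRK1 replicate 1 there was 1 (TIMP3), where 1.96% of all genes passed, and without GIRK1 replicate 2 or WT replicate 2 there were 0. The eGFP replicates lay further apart than the GIRK1 replicates, with an SD of the log2 difference over 9288 genes of 0.647 against 0.341. A line left with 1 library was assumed to vary like the other groups.

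By the study's own definition, read here as a 2-fold or larger gap between mean RPM and a coefficient of variation under 0.7 in both lines, 1 of the 29 members with a read in the 4 libraries was higher in GIRK1 than in eGFP (ADAMTS13) and 5 were lower (ADAMTS6, MMP2, MMP17, MMP19 and TIMP2). Of all genes with a read there, 4.21% were higher and 4.58% lower. MMP2 and MMP19 rested on counts of 1 to 11 reads, and with TMM counts per 1000000 in place of RPM the call of MMP17 was lost. In 2 of the 30 members with a read in the 5 libraries compared, both GIRK1 libraries lay above all 3 controls (ADAMTS13 and MMP15), where 19.1% of all genes did so. On TMM counts MMP15 no longer did. In 8 of the 30 both lay below them (ADAMTS6, ADAMTS12, MMP10, MMP16, MMP17, MMP19, MMP24 and TIMP3), where 15.9% of all genes did so. MMP10 and MMP24 had at most 3 reads in any library.

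**Figure D3:**
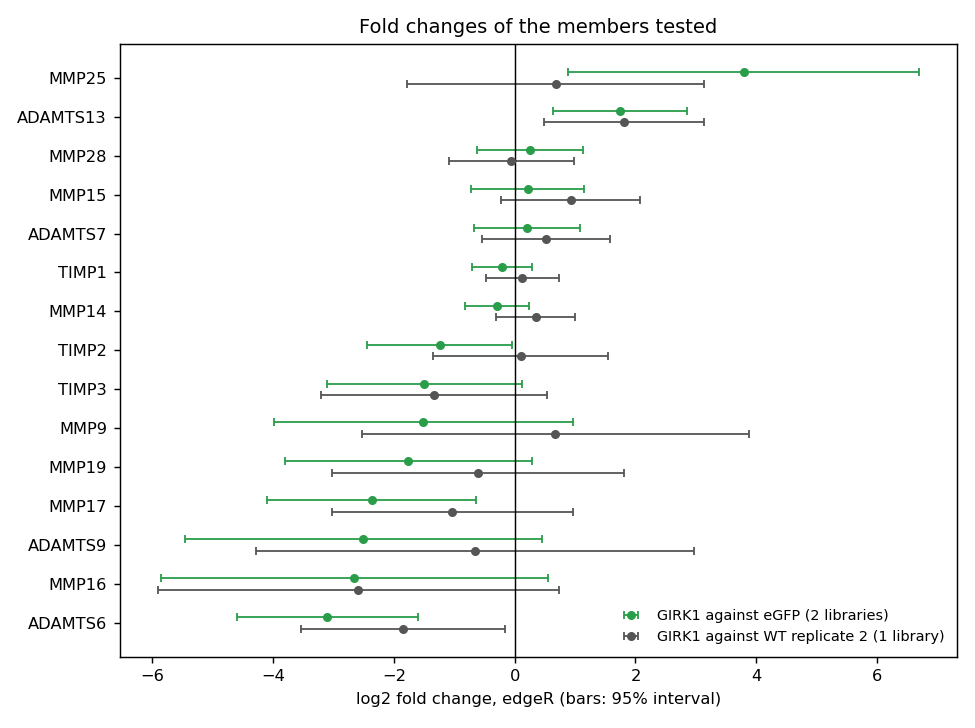
log2 fold change of GIRK1 against eGFP and against WT replicate 2 (x axis) for 15 of the 16 members tested, with bars for the 95% interval of the edgeR fit. ADAMTS12 is left out because it had 0 reads in both GIRK1 libraries. ADAMTS6 lies left of 0 and ADAMTS13 right of 0 in both comparisons, and the intervals of TIMP1 and MMP14 are the narrowest.

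TIMP3, which stays bound to the matrix and inhibits MMPs, several ADAMTS enzymes and ADAM17, lies on chromosome 22 from 32801701 to 32863043 (GRCh38, plus strand), inside the SYN3 gene. It had 628 and 1192 reads (122 and 116 RPM) in the eGFP libraries, 1789 reads (112 RPM) in WT replicate 2, and 834 and 129 reads (75.1 and 12.5 RPM) in the GIRK1 libraries. Both GIRK1 libraries lay below the 3 controls, which lay close together, but the GIRK1 libraries differed from each other 6.02-fold. The means were 119 ± 4.25 RPM in eGFP and 43.8 ± 44.3 RPM in GIRK1 (SD, n = 2 each). The log2 fold change against eGFP was -1.50 (95% interval -3.11 to 0.12, edgeR adjusted p = 0.293). Against WT replicate 2 it was -1.34 (-3.20 to 0.53, edgeR adjusted p = 0.785). How large the difference is depends on GIRK1 replicate 2. Without GIRK1 replicate 1 the log2 fold changes were -3.28 (edgeR adjusted p = 0.000532) and -3.12 (edgeR adjusted p = 0.00356), with GIRK1 then a lone library whose spread came from the other groups, and without GIRK1 replicate 2 they were -0.73 and -0.57.

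TIMP2, an inhibitor that also joins MMP14 in activating pro-MMP2, lies on chromosome 17 from 78852977 to 78925387 (GRCh38, minus strand). It had 422 and 362 reads (82.3 and 35.4 RPM) in eGFP, 393 reads (24.5 RPM) in WT replicate 2, and 393 and 170 reads (35.4 and 16.4 RPM) in GIRK1. The groups overlapped, since GIRK1 replicate 1 lay at the level of eGFP replicate 2, and WT replicate 2 lay between the GIRK1 libraries. The log2 fold change was -1.24 against eGFP (-2.44 to -0.04, edgeR adjusted p = 0.253) and 0.10 against WT replicate 2 (-1.35 to 1.55). The difference from eGFP came with a 2.33-fold difference between the eGFP replicates, and its edgeR adjusted p was 0.0239 once replicate number entered as a block. With 1 library left out the log2 fold change ran from -0.43 (without eGFP replicate 1) to -1.88 (without GIRK1 replicate 1).

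TIMP1, a secreted inhibitor of most MMPs, lies on chromosome X from 47582313 to 47586789 (GRCh38, plus strand), inside SYN1. It had 654 and 616 RPM in eGFP, 526 RPM in WT replicate 2, and 552 and 580 RPM in GIRK1. The GIRK1 libraries lay between the parental and the eGFP libraries, with log2 fold changes of -0.21 against eGFP (-0.70 to 0.29) and 0.13 against WT replicate 2 (-0.48 to 0.74, edgeR). Both intervals stayed within 2-fold each way. TIMP4, the inhibitor found mainly in heart and brain, had 0 reads in the 5 libraries compared.

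**Figure D4:**
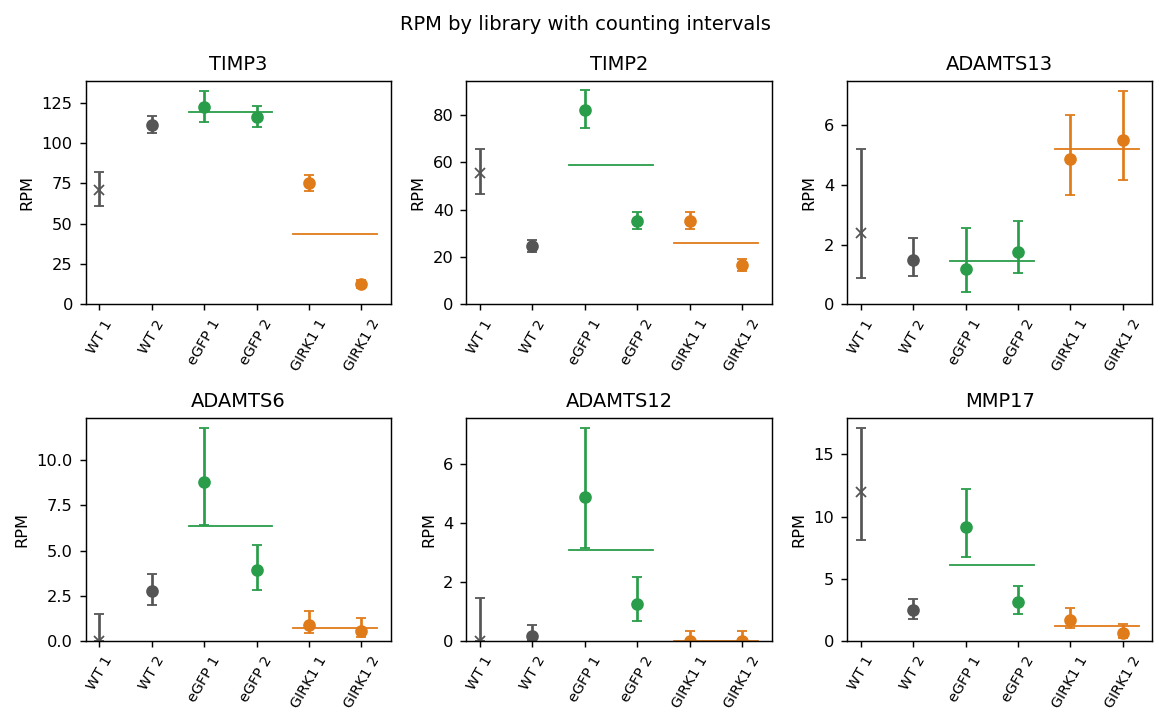
RPM of TIMP3, TIMP2, ADAMTS13, ADAMTS6, ADAMTS12 and MMP17 in each library (linear axes), with bars for the exact 95% Poisson interval of the count and lines for the means of the eGFP and GIRK1 pairs. TIMP3 lies lower in GIRK1 replicate 2 than in replicate 1, and eGFP replicate 1 lies above eGFP replicate 2 for TIMP2, ADAMTS6, ADAMTS12 and MMP17.

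The membrane-type MMPs act at the cell surface. MMP14 (MT1-MMP), which cuts collagens and laminins around the cell and activates pro-MMP2, lies on chromosome 14 from 22836557 to 22849027 (GRCh38, plus strand). It had 797 and 1491 reads (155 and 146 RPM) in eGFP, 1622 reads (101 RPM) in WT replicate 2 and 1586 and 1146 reads (142.8 and 111 RPM) in GIRK1. The GIRK1 values lay between those of the control lines, with log2 fold changes of -0.29 against eGFP (-0.82 to 0.24) and 0.35 against WT replicate 2 (-0.31 to 1.005, edgeR).

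MMP15 (MT2-MMP), a transmembrane relative of MMP14, lies on chromosome 16 from 58025566 to 58046901 (GRCh38, plus strand). It had 24 and 39 reads (4.68 and 3.81 RPM) in eGFP, 43 reads (2.68 RPM) in WT replicate 2 and 57 and 51 reads (5.13 and 4.93 RPM) in GIRK1. GIRK1 lay just above all 3 controls, by 1.18-fold over the eGFP mean, and the log2 fold change against eGFP was 0.22 (-0.72 to 1.15, edgeR).

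MMP17 (MT4-MMP), which is held in the membrane by a lipid anchor, lies on chromosome 12 from 131828393 to 131851783 (GRCh38, plus strand). It had 47 and 32 reads (9.17 and 3.13 RPM) in eGFP, 40 reads (2.49 RPM) in WT replicate 2 and 19 and 7 reads (1.71 and 0.677 RPM) in GIRK1. Both GIRK1 libraries lay below all 3 controls. The log2 fold change was -2.36 against eGFP (-4.09 to -0.64, edgeR adjusted p = 0.160) and -1.03 against WT replicate 2 (-3.02 to 0.96, edgeR adjusted p = 0.856). Within each pair the replicates differed 2.93-fold (eGFP) and 2.53-fold (GIRK1). The adjusted p against eGFP was 0.0418 with replicate number as a block (edgeR) and 0.0436 in DESeq2. With 1 library left out the log2 fold change ran from -1.35 (without eGFP replicate 1) to -3.18 (without GIRK1 replicate 1).

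MMP25 (MT6-MMP), best known from leukocytes and also lipid-anchored, lies on chromosome 16 from 3046681 to 3060726 (GRCh38, plus strand) and shares exon sequence with MMP25-AS1 on the other strand. Like ADAMTS12 below, it was picked out after its values were seen. It had 3 and 0 reads in eGFP, 32 reads (1.995 RPM) in WT replicate 2 and 54 and 15 reads (4.86 and 1.45 RPM) in GIRK1. The eGFP libraries stood low, and WT replicate 2 lay between the GIRK1 libraries. Summed over each pair, GIRK1 was 16.5-fold above eGFP (95% counting interval 5.40 to 81.8), and the edgeR log2 fold change was 3.79 with an adjusted p of 0.173. The fold rests on those 3 eGFP reads, and the log2 fold change was 2.31 without eGFP replicate 2, 8.25 without eGFP replicate 1, which leaves eGFP at 0 reads, and 1.70 with eGFP and WT replicate 2 pooled. Against WT replicate 2 the log2 fold change was 0.68 (-1.78 to 3.13, edgeR). The 5 leukocyte markers summed to 49.0 and 44.8 RPM in eGFP, 22.4 RPM in WT replicate 2 and 35.8 and 32.4 RPM in GIRK1, with PTPRC and LYZ at 0, and their part in these values was not tested. Of the other membrane-type genes, MMP16 had 5 and 4 reads in eGFP, 10 in WT replicate 2 and 2 and 0 in GIRK1, and MMP24 had 3 reads at most.

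Of the secreted MMPs outside the cluster, MMP28 (epilysin), made by keratinocytes and other epithelia and linked to wound repair, had 10 reads or more in every library compared. It lies on chromosome 17 from 35756249 to 35795707 (GRCh38, minus strand) within the annotated span of TAF15. It had 59 and 220 reads (11.5 and 21.5 RPM) in eGFP, 343 reads (21.4 RPM) in WT replicate 2 and 284 and 156 reads (25.6 and 15.1 RPM) in GIRK1. The groups overlapped, with log2 fold changes of 0.25 against eGFP (-0.62 to 1.12) and -0.05 against WT replicate 2 (-1.09 to 0.98, edgeR). The gelatinase MMP9 had 13 and 10 reads in eGFP, 6 in WT replicate 2 and 12 and 1 in GIRK1. MMP19, a secreted MMP also found in the epidermis, had 4 and 11 reads in eGFP, 7 in WT replicate 2 and 4 and 2 in GIRK1. Neither passed the threshold (edgeR adjusted p = 0.463 and 0.322 against eGFP), although both MMP19 values in GIRK1 lay below the 3 controls in RPM.

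ADAMTS13, the protease that cuts von Willebrand factor and is made mostly in the liver, was the ADAMTS gene that stood higher in GIRK1. It lies on chromosome 9 from 133414358 to 133459402 (GRCh38, plus strand). It had 6 and 18 reads (1.17 and 1.76 RPM) in eGFP, 24 reads (1.496 RPM) in WT replicate 2 and 54 and 57 reads (4.86 and 5.51 RPM) in GIRK1. Both GIRK1 libraries lay well above all 3 controls, and the replicates of each line lay close together. The means were 5.19 ± 0.457 RPM in GIRK1 and 1.46 ± 0.416 RPM in eGFP (SD, n = 2 each), a 3.54-fold difference. The log2 fold change was 1.75 against eGFP (0.64 to 2.85, edgeR adjusted p = 0.125) and 1.81 against WT replicate 2 (0.48 to 3.13, edgeR adjusted p = 0.497). Over the alternatives tried its log2 fold changes in both comparisons stayed between 1.56 and 2.03, and it passed the adjusted threshold in 1 of them, against eGFP without eGFP replicate 2 (edgeR adjusted p = 0.0388). Its transcript was read with a single amplicon of 107 bases and 68.2% GC, so this does not show which isoform was read.

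ADAMTS6, a relative of ADAMTS10 with a part in fibrillin-rich matrix, stood lower in GIRK1. It lies on chromosome 5 from 65148736 to 65481920 (GRCh38, minus strand), and the stretch printed above runs up to its start. It had 45 and 40 reads (8.78 and 3.91 RPM) in eGFP, 44 reads (2.74 RPM) in WT replicate 2 and 10 and 6 reads (0.900 and 0.580 RPM) in GIRK1. Both GIRK1 libraries lay below all 3 controls, and WT replicate 2 lay 3.71-fold above their mean. The eGFP mean, 6.34 ± 3.44 RPM, was 8.57-fold above the GIRK1 mean, 0.740 ± 0.226 RPM (SD, n = 2 each). The log2 fold change was -3.10 against eGFP (-4.60 to -1.60, edgeR adjusted p = 0.0738) and -1.85 against WT replicate 2 (-3.54 to -0.16, edgeR adjusted p = 0.642). Against eGFP it kept this direction under each of 14 alternatives, from -3.64 to -2.36. Among these, GIRK1 and eGFP alone and WT replicate 2 left out are the same fit. Its adjusted p passed the threshold with no filter (0.00288, edgeR), in DESeq2 (0.00222), with replicate number as a block (0.0208, edgeR) and without either eGFP replicate (0.0273 without replicate 1 and 0.000842 without replicate 2, edgeR). With all 6 libraries in the fit it rose to 0.934.

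ADAMTS7 and ADAMTS12 form a pair that cuts cartilage oligomeric matrix protein. ADAMTS12, on chromosome 5 from 33523535 to 33892192 (GRCh38, minus strand), had 25 and 13 reads (4.88 and 1.27 RPM) in eGFP, 3 reads (0.187 RPM) in WT replicate 2 and 0 in both GIRK1 libraries. Its edgeR adjusted p against eGFP was 0.0959. Set against the mean of the eGFP libraries, it was at least 10.6-fold lower in GIRK1, taking the higher 3-read floor of the GIRK1 libraries, 0.290 RPM. This bound leaves out the counting error of the eGFP mean. The exact 95% upper limit for 0 reads in GIRK1 replicate 2 was higher than the floor, at 0.357 RPM. Without eGFP replicate 1 the bound was 4.38-fold and without eGFP replicate 2 it was 16.8-fold. Against WT replicate 2, which stood at its own floor, no difference was detectable. The eGFP libraries were thus the ones that stood apart for this gene.

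ADAMTS7, on chromosome 15 from 78759203 to 78811431 (GRCh38, minus strand), had 40 and 57 reads (7.80 and 5.57 RPM) in eGFP, 89 reads (5.55 RPM) in WT replicate 2 and 100 and 69 reads (9.003 and 6.67 RPM) in GIRK1. The groups overlapped, and the log2 fold change was 0.20 against eGFP (-0.68 to 1.08) and 0.52 against WT replicate 2 (-0.54 to 1.58, edgeR). ADAMTS7 has near copies in the genome, and how reads shared between copies were counted is not given in the sources used here, so its values are less certain.

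The remaining ADAMTS genes gave few reads. Of the 7 proteoglycanases, which cut aggrecan and versican, ADAMTS4, ADAMTS5 and ADAMTS8 were not read at all and ADAMTS20 was not read in the 5 libraries. ADAMTS1 had 1 and 6 reads in eGFP, 7 in WT replicate 2 and 10 and 4 in GIRK1. ADAMTS9 had 11 and 7 reads in eGFP, 6 in WT replicate 2 and 5 and 0 in GIRK1, and ADAMTS15 had 0 to 5 reads. Among the enzymes that trim procollagen, ADAMTS3 had 14 reads in WT replicate 2, 0 and 4 in eGFP and 3 in each GIRK1 library, whereas ADAMTS2 and ADAMTS14 were not read.

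Genes that act with these proteases were followed in 5 lists. The activators and convertases (furin, the PCSK and plasminogen activator genes and related proteases) gave 0 adjusted calls of 7 tested against eGFP, with 2 lower at an unadjusted p below 0.05. The inhibitors outside the TIMP family gave 0 of 5, also with 2 lower at the unadjusted level. Over all genes tested against eGFP, 1.60% passed the adjusted threshold, and 8.13% were higher and 10.7% lower at the unadjusted level. PLAU, the urokinase that turns plasminogen into plasmin, had a log2 fold change of -2.28 (edgeR adjusted p = 0.104). It stood highest in eGFP replicate 1, with 54.8 RPM against 18.3 in eGFP replicate 2.

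Of 11 tested genes for docking and clearance of the proteases, 1 was higher and 2 lower at an unadjusted p below 0.05 (edgeR). LCN2 rose and THBS1 fell past the adjusted threshold. LCN2, the lipocalin that binds and stabilises MMP9, had 3.71 and 4.01 RPM in eGFP, 7.29 RPM in WT replicate 2 and 38.9 and 34.8 RPM in GIRK1. Its log2 fold change against eGFP was 3.21 (edgeR adjusted p = 0.00374). THBS1, a matrix protein that takes part in the clearance of MMPs, had 426 and 320 RPM in eGFP, 157 RPM in WT replicate 2 and 68.6 and 87.0 RPM in GIRK1. It fell by 2.31 on the log2 scale against eGFP (edgeR adjusted p = 0.0150).

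Of 9 tested AP-1 and ETS factors, which drive many MMP promoters, 1 was higher and 3 lower at an unadjusted p below 0.05 (edgeR). FOSB alone passed the adjusted threshold, with 38.4 and 52.2 RPM in eGFP and 15.7 and 18.9 RPM in GIRK1. Its log2 fold change was -1.42 (edgeR adjusted p = 0.0490), and it had 35.0 RPM in WT replicate 2. Of 9 tested matrix substrates, 1 was higher and 5 lower at an unadjusted p below 0.05 (edgeR). LAMB3 was among those that fell, and it encodes a chain of a basement membrane laminin that MMP14 cuts. LAMB3 had 1747 and 1790 RPM in eGFP, 768 RPM in WT replicate 2 and 258 and 260 RPM in GIRK1 (log2 fold change -2.81, edgeR adjusted p = 0.00301). Against WT replicate 2, 0 genes of the 5 lists (7, 5, 11, 9 and 9 tested) passed the adjusted threshold in edgeR, as did 0.229% of all genes. In that comparison 1 was higher and 6 lower at an unadjusted p below 0.05, where 3.76% of all genes were higher and 3.62% lower. For PLAU, LCN2, THBS1, FOSB and LAMB3, WT replicate 2 lay between the eGFP and the GIRK1 libraries. The call of FOSB was lost without either GIRK1 replicate (edgeR adjusted p = 0.242 and 0.134) and without WT replicate 2 (0.0530), and also with library totals, upper quartile scaling, at least 10 reads in every library, or eGFP and WT replicate 2 pooled (0.0531 to 0.0645). The calls of LCN2, THBS1 and LAMB3 held with any of the 5 libraries left out, but that of THBS1 was lost with the controls pooled (edgeR adjusted p = 0.0908). With WT replicate 1 added to the fit these calls were lost, as were those of all other genes.

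In the library labelled WT replicate 1, shown apart, the same gene families had another makeup. MMP14 had 1 read there (0.399 RPM, exact 95% interval 0.0101 to 2.22) against 101 to 155 RPM in the other 5 libraries. MMP28 had 0 reads, so WT replicate 2 was at least 17.9-fold higher, and TIMP1 had 147 RPM against at least 526 RPM elsewhere. TIMP2 (55.5 RPM) and TIMP3 (71.0 RPM) lay within the range of the other libraries. ADAMTS19, MMP15 and MMP16 were higher there than in any other library, with exact 95% Poisson intervals apart from those of the other 5. Other members were also highest there without such a gap, MMP17 for example with 12.0 RPM against at most 9.17 RPM. Basal and luminal markers moved with these values, as given for the libraries, and the cause was not tested.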

How the data were processed

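Libraries were prepared by the authors from 10 ng RNA with the Ion AmpliSeq Transcriptome kit and sequenced on an Ion S5 XL. Reads were mapped with the Ampliseq RNA workflow of the Ion Torrent suite to a human transcriptome reference of amplicons. The version of the workflow and the treatment of reads with several matches are not given in the sources used here. The authors deposited, per amplicon, the whole-number read counts and the RPM, which are the counts scaled to the library total. Amplicon positions are on transcripts, so gene positions were taken from GENCODE (GRCh38), which matched all 46 symbols, and promoters from RefSeq (GRCh38.p14).

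Groups came from the labels. The counts of 5 libraries (eGFP 1 and 2, GIRK1 1 and 2, WT 2) went into edgeR 4.0.16 under R 4.3.3, with limma 3.58.1 loaded, by glmQLFit and glmQLFTest on group means, with TMM normalization, filterByExpr and Benjamini-Hochberg adjustment over all 11779 genes kept, at 0.05. Standard errors and 95% intervals came from the F value and its degrees of freedom. The study's fold and variation rule was applied to RPM, and genes at 0 reads throughout a line were left uncalled. The procedure was tested on simulated counts with 200 changed genes, drawn at any level from the 11779 genes kept. Each gene had the same mean in every library before the change. At 4-fold it recovered 81.5% of them against eGFP, with 22 false calls, and 72.5% against WT replicate 2, with 24. At 8-fold it recovered 85.5% with 8 false calls and 84% with 12. The false calls at 4-fold were a larger share of the calls than the adjusted threshold of 0.05 aims at. Recovery was taken over genes of all levels, so it does not give the recovery for the members.

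Named with values in every library were members past the adjusted threshold, members with both GIRK1 libraries outside all 3 controls and a mean of at least 10 reads, and members with a mean of at least 5 RPM. Members above their intervals elsewhere in WT replicate 1, members never read, and called genes of the pathway lists were also named, except where a result is not reported here. The low-read members, ADAMTS12 and MMP25 were added after their values were seen. The members, lists and tests were chosen with earlier results of these data known. Alternatives were other libraries in the fit, normalizations, filters, DESeq2 1.42.0, the replicate number as a block, stricter thresholds and leaving out each library. Counts at an unadjusted p were added after the data were seen. The replicate differences of eGFP and GIRK1 correlated at 0.191 over 9288 genes, but nothing in the labels says that a number marks a shared culture or day, so the fit has no block.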

Additional observations from a re-analysis of the deposited data

Results flagged for a closer look

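The library labelled WT replicate 1 entered no main comparison. In it 3 members stood above every other library, with exact 95% Poisson intervals of the count that did not meet those of the other 5. ADAMTS19, an ADAMTS gene with a part in ovary and heart valve development, had 378 reads (150.831 RPM, interval 136 to 167) and 0 reads in the other 5 libraries, at least 806-fold above the 3-read floor of WT replicate 2. It lies on chromosome 5 from 129460265 to 129738683 (GRCh38, plus strand) and shares exon sequence with ADAMTS19-AS1 on the other strand. MMP15 had 83 reads (33.119 RPM, interval 26.4 to 41.1) against at most 5.13 RPM elsewhere. MMP16 had 13 reads (5.187 RPM, interval 2.76 to 8.87) against at most 0.975 RPM elsewhere. The basal and luminal marker values of that library are given with the description of the libraries, and their part in these values was not tested.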

How the results depend on the processing

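The count of members past the adjusted threshold against eGFP, 0, became 4 with no filter on low counts (ADAMTS6, ADAMTS12, MMP17 and MMP25), 3 in DESeq2 (ADAMTS6, ADAMTS12 and MMP17) and 4 with the replicate number as a replicate block (ADAMTS6, ADAMTS12, MMP17 and TIMP2), and lay between 0 and 5 with a library left out. Against WT replicate 2 it was 0 to 1 with a library left out (TIMP3 without GIRK1 replicate 1). At an unadjusted p below 0.05 the fit with all 6 libraries gave 4 members against eGFP and 2 against WT. Over all genes, 188 against eGFP and 27 against WT replicate 2 became 0 and 0 with all 6 libraries, 865 and 133 with no filter, 107 and 16 with at least 10 reads in every library, 677 and 128 in DESeq2, 549 and 77 with the replicate block, and 42 and 0 at an adjusted p below 0.01. With a library left out they ran from 158 to 2997 (973 without eGFP replicate 1, 2997 without eGFP replicate 2) and from 34 to 576 (576 without eGFP replicate 1, 449 without eGFP replicate 2, 64 without GIRK1 replicate 1). The shared coefficient of biological variation was 0.243, 0.468 with all 6 libraries and 0.151 without either eGFP replicate. The block changed no other adjusted call of a member, and at an unadjusted p below 0.05 it moved the members from 6 to 8 against eGFP and from 2 to 6 against WT replicate 2. Unadjusted shares of all genes were not taken for the block or for the fit with all 6 libraries. Nothing about the members is therefore read from their unadjusted counts in these fits.

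The study's rule called 6 members on RPM, 3 on raw counts and 15 with no limit on variation. Both GIRK1 libraries lay outside the controls in 10 members, in 17 with eGFP as the only control and in 4 with WT replicate 1 added. Shares over all genes were taken only for the rule on RPM and for the 3 controls. Nothing about the members is therefore read from the counts under the other settings. Of 314 refitted values of named members, 281 kept their side of the threshold and their sign. Another 21 passed it newly and 12 changed sign, none of the 12 past the threshold. Leaving out WT replicate 2 gives the same fit as GIRK1 and eGFP alone, and both are counted here against eGFP. With a library left out, the log2 fold change of ADAMTS7 against eGFP ran from -0.10 (without eGFP replicate 2; -0.02 without GIRK1 replicate 1) to 0.51, and that of MMP28 from -0.15 (without GIRK1 replicate 1; -0.06 without eGFP replicate 1) to 0.72. Against WT, all 6 libraries gave -1.66 for MMP15, 0.86 for MMP28 and -0.52 for TIMP2. The block gave -0.61 for TIMP2 and -0.63 for MMP25, and leaving out a GIRK1 replicate gave -0.54 to 0.53 for TIMP2, -0.42 to 1.28 for MMP25 and -0.46 to 0.26 for MMP28. The causes of these shifts were not tested. Depth limits the 28 members under 10 reads in each of the 5 libraries, for which no difference could be judged.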
